A study of Mus musculus with 12 samples.

Results

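The *Cd209a* conventional dendritic cells of type 2 (cDC2) were 161 cells among the 11639 CD11c-selected tumor cells kept for analysis, 1.38% of them (95% confidence interval, CI, 1.18% to 1.61%). They were chosen by their measured counts. A cell belonged to the group if it had at least 200 detected genes, at least 3 *Cd209a* transcripts, and no transcript of *Pf4*, *Retnla*, *Ear2*, *Xcr1*, or *Mki67*. Transcripts were counted as unique molecular identifiers (UMIs), which mark each captured mRNA molecule once. The study profiled single cells of late-stage breast tumors on the 10x Genomics platform, from mice that all carried the polyoma middle T (PyMT) oncogene, which drives spontaneous tumors of the mammary gland. There were 3 CD11c-selected samples of the wild-type PAR2 genotype and 3 of the PAR2 G37I mutant, a protease-activated receptor 2 that coagulation factor Xa cannot signal through. CD11c is an integrin of DCs and many macrophages, the cells were picked with magnetic beads, and the beads decided which cells were seen. Tumors were taken once they had grown to the largest size the animal permit allowed. The 6 samples were deposited in 1 matrix whose barcodes carry no sample name, so the matrix was treated as 1 sample, no genotype was compared, and no value has a replicate error or a p-value.

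Conventional DCs take up antigen in a tissue, carry it to lymph nodes, and show it to T cells. Type 1 cells (cDC1), marked by the chemokine receptor *Xcr1* and the dead-cell receptor *Clec9a*, are known for presenting antigen to CD8 T cells. Type 2 cells depend in large part on the transcription factor *Irf4*, bear lectins such as *Clec10a* and *Mgl2*, and are known for presenting antigen to CD4 T cells. *Cd209a* is the mouse relative of DC-SIGN, a lectin that binds sugars on microbes and glycoproteins, and it is also found on DCs that derive from monocytes.

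The members were compared with 465 cDC1 of the same matrix (at least 1 UMI each of *Xcr1* and *Clec9a*). The members were also compared with 6818 macrophages (at least 3 UMIs of *C1qa*, a complement subunit, and none of *Cd209a*). The comparison groups overlapped, as 66 cells met the rule for cDC1 and also the rule for macrophages. The part of these 66 cells in the levels and ratios was not tested. The level of a gene was its UMIs summed over the cells of a group per 1000000 UMIs of that group (CPM). Intervals for levels and ratios are exact, are given at 95%, and cover counting error only. The members had 1642692 UMIs in all and a median of 9217 per cell, from 1006 to 22622, with 2595 detected genes and 3.92% mitochondrial UMIs in the median cell. The median cDC1 had 17158 UMIs and the median macrophage 8023.5.

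The clauses that shut out *Pf4*, *Retnla*, *Ear2*, *Xcr1*, and *Mki67* set the size of the group. Of 816 cells with at least 3 *Cd209a* UMIs, 655 carried a UMI of at least 1 of these genes. *Retnla* or *Ear2*, genes of alternatively activated macrophages and of an eosinophil-type ribonuclease family, removed 513 cells, and 231 of them failed by that clause alone. The proliferation gene *Mki67* removed 342 (91 alone), the platelet chemokine *Pf4* 131 (27 alone), and *Xcr1* 38 (4 alone). Cells that failed more clauses were deeper. The median was 9217 UMIs for the members, 13899 for cells that failed 1 clause, 17175 for 2, 26628 for 3, and 46578.5 for the 10 cells that failed 4. The part of depth in the rule was not tested.

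The barcodes ran through the alphabet 6 times, and these stretches, called barcode runs, were not linked to samples or genotypes. Runs 1, 2, 3, 5, and 6 held 19, 49, 42, 19, and 32 members, between 0.729% and 2.08% of the cells of a run. Run 4 held 0 of 360 cells, which allows a share of up to 0.833%. That run had 69 cells with at least 3 *Cd209a* UMIs, and their median of 37066 UMIs was the highest of the runs. Total UMIs per run ranged from 13314063 to 24231244. In the matrix 76 barcodes occurred more than once, and 3 members had such a barcode.

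The label was checked against lists of cell type markers. A gene counted as measured in a comparison if its mean over both groups was at least 10 CPM. Of 11 measured genes that conventional DCs share, 9 were at least 2-fold higher in the members than in macrophages and none was 2-fold lower. Their median ratio was 10.5, and that of all 7050 measured genes was 0.949, with 6.18% of those genes at least 2-fold higher. *Flt3*, the growth factor receptor that DC development depends on, stood at 88.3 CPM (CI 74.5 to 104) against 6.43 in macrophages and 193 in cDC1, and *Zbtb46*, a transcription factor of the conventional DC lineage, stood at 28.6 CPM (CI 21.0 to 38.0) against 2.61. *Clec10a* was measured at 550 CPM against 96.6 in macrophages and 15.9 in cDC1, and *Mgl2* at 536 CPM against 120 and 77.2. *Sirpa*, which sets type 2 cells apart from type 1, was at 192 CPM against 32.9 in cDC1, with 337 CPM in macrophages. Of the 16 measured genes of the cDC2 list outside the rule, 6 were at least 2-fold higher than in macrophages and none lower, with a median ratio of 1.18, and 10 were higher and 2 lower than in cDC1, with a median ratio of 5.60. Of 13 measured genes of monocytes and monocyte-derived DCs, 7 were at least 2-fold higher than in cDC1 and none lower, *Ly6c2*, *Ccr2*, *Cd14*, *Csf1r*, *Fcgr1*, *Plac8*, and *Ms4a4c*, with a median ratio of 2.03. That median was the ratio of *Ly6c2*, which was 1.73 to 1.91 without run 1, 3, 4, or 5 and 3.63 without run 2. The share of all 6811 genes at least 2-fold higher than in cDC1 was 8.41%.

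Some defining genes were absent or uneven. *Irf4* was at 37.7 CPM (CI 28.9 to 48.4) and had a UMI in 13.7% of the members. Its level was 5.18, 15, 72.8, 15.3, and 37.9 CPM in runs 1, 2, 3, 5, and 6, and macrophages of the same runs had 30.3, 12.3, 22.9, 10.0, and 10.5 CPM, so the members lay below them in run 1 and above them in the others. Over all cells its ratio over macrophages was 2.19, and without run 3 it was 1.19 and no longer 2-fold. *Clec4a4*, which marks a splenic type 2 subset, had 0 UMIs, and *Tbx21*, reported for another such subset, had 1. *Fscn1* and *Cacnb3*, defining genes of migratory DCs, were at 0. The measured genes of the migratory DC list went the other way. Against macrophages 4 of 8 were at least 2-fold higher and none lower, with a median ratio of 2.45. Against cDC1 3 of 8 were higher and 1 lower. The list summed to 1315.5 CPM in the members, 754 in cDC1, and 468 in macrophages. It summed to 13270 CPM in cells chosen on *Ccr7* and *Fscn1*. *Xcr1* was kept out by the rule. *Clec9a*, which was not, stood at 7.91 CPM in the members. The cDC1 were chosen on *Clec9a*, so their 181 CPM were in part set in advance and do not check the label.

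Transcripts of other cell types were low but not missing. The 13 macrophage genes outside the rule summed to 2173 CPM in the members, from 1001 to 4648 over the runs, against 31019 in macrophages. Most members had some of them, with at least 5 UMIs of the 13 genes in 120 members and none in 5. *C1qa*, which is not among the 13, sat in few cells. The 10 members with the most *C1qa* held 77.4% of its UMIs, 17 members (10.6%) had at least 3 *C1qa* UMIs, and 119 had none. Of 11 T and NK cell genes, 6 had no UMI in any member, *Cd3e*, *Cd3d*, and *Ncr1* among them, and the list summed to 6.09 CPM. *Klrd1* and *Cd7* are also genes of NK and T cells, so this low sum stands beside their levels below. The 7 genes of plasmacytoid DCs summed to 565 CPM, of which *Bst2*, an interferon-induced gene of many cells, gave 298 and *Tcf4* 203. *Siglech*, a receptor largely restricted to these cells, had 34 UMIs in 12 members, with 21 of them in 1 cell, and its level of 20.7 CPM was 7.24 without run 2.

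Besides *Cd209a*, which the rule used and which stood at 1024 CPM (CI 976 to 1074), 4 genes had been proposed as marks of these cells with earlier results of these data in view. They are *Ifitm1*, a small membrane protein of an antiviral family, *Klrd1* (CD94), a lectin that pairs with NKG2 receptors on NK cells, *Cd7*, an immunoglobulin-type receptor of T and NK cells and their progenitors, and *Ctnnd2*, a delta-catenin best known from neurons. In GENCODE M21 on GRCm38 the genes lie at chr8:3743397-3748984 (*Cd209a*, minus strand), chr7:140967221-140969825 (*Ifitm1*, plus strand), chr6:129591782-129598775 (*Klrd1*, plus strand), chr11:121036747-121039418 (*Cd7*, minus strand), and chr15:30172593-31029341 (*Ctnnd2*, plus strand). All are protein-coding and lie apart in the genome. Levels below are summed over each gene as the authors counted it.

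The 250 bases before the start of 3 of these genes are shown as the stretch next to the start of transcription of the genes that mark the cells. They come from RefSeq on GRCm38.p6 and are read 5′ to 3′ on the strand of the gene. *Klrd1* and *Cd7* were not in the table. RefSeq and GENCODE place some starts differently, so the *Ifitm1* window lies inside the GENCODE span given above, and the *Ctnnd2* window ends short of the GENCODE start. The windows are chr8:3748985-3749234 for *Cd209a*, chr7:140967826-140968075 for *Ifitm1*, and chr15:30172284-30172533 for *Ctnnd2*.
*Cd209a*: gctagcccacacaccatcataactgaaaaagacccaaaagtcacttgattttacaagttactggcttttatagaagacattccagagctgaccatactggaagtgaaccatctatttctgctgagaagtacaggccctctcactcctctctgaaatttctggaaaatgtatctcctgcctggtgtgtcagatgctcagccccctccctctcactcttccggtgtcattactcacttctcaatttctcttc
*Ifitm1*: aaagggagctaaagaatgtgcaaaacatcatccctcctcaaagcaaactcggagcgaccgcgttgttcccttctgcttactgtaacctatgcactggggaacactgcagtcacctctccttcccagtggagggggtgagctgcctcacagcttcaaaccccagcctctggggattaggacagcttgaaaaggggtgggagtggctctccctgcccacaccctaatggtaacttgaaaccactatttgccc
*Ctnnd2*: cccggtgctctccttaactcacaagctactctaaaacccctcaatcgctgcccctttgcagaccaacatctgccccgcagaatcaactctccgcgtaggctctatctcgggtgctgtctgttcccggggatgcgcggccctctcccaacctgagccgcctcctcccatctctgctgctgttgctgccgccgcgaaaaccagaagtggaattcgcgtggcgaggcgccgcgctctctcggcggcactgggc
A pair of motifs known from DCs and from interferon responses was searched on both strands. The ETS-IRF composite element, which *Irf4* and *Irf8* bind together with *Spi1*, was taken as GGAA, any 2 bases, and GAAA. The core of the interferon-stimulated response element was taken as GAAA, any 2 bases, and GAAA. Matches to the 2 motifs can overlap. The first occurred in 2.30% and the second in 2.98% of 32851 RefSeq promoter windows, and neither occurred in these 3, which says only that the letters are not in them. The windows are printed without capitals, and their bases were 44.8% G or C in *Cd209a*, 53.6% in *Ifitm1*, and 62.8% in *Ctnnd2*.

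*Ifitm1* stood at 692 CPM (CI 652 to 734) in the members, 30.4 in macrophages, and 24.1 in cDC1. In runs 1, 2, 3, 5, and 6 it was 409, 836, 236, 1124, and 1276 CPM, so the members of run 6 had over 5 times the level of run 3. In macrophages the runs spanned 8.52 to 56.3 CPM and in cDC1 20.5 to 46.1, and neither range reached that of the members.

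*Klrd1* was the steadiest of the marker genes, at 383, 340, 412, 361, and 355 CPM in these runs and 375 CPM (CI 346 to 406) over all. Macrophages had 7.15 CPM and cDC1 30.7. Its ratio over macrophages was 52.4 (CI 46.6 to 59.1) and over cDC1 12.2 (CI 10.6 to 14.1).

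*Cd7* was at 119 CPM (CI 103 to 137) against 1.12 in macrophages and 1.76 in cDC1, ratios of 106 (CI 81.0 to 139) and 67.4 (CI 40.5 to 120), the latter 112 without run 1. It was uneven, with 20.7 CPM in run 1 and 100, 117, 163, and 183 in runs 2, 3, 5, and 6. *Ctnnd2* was the lowest of the markers and even across runs, at 82.8, 75.1, 67.5, 86.4, and 93.1 CPM, against 4.20 in macrophages and 6.16 in cDC1. Neither comparison group reached the members in any run for any of the 4 genes.

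**Figure D1:**
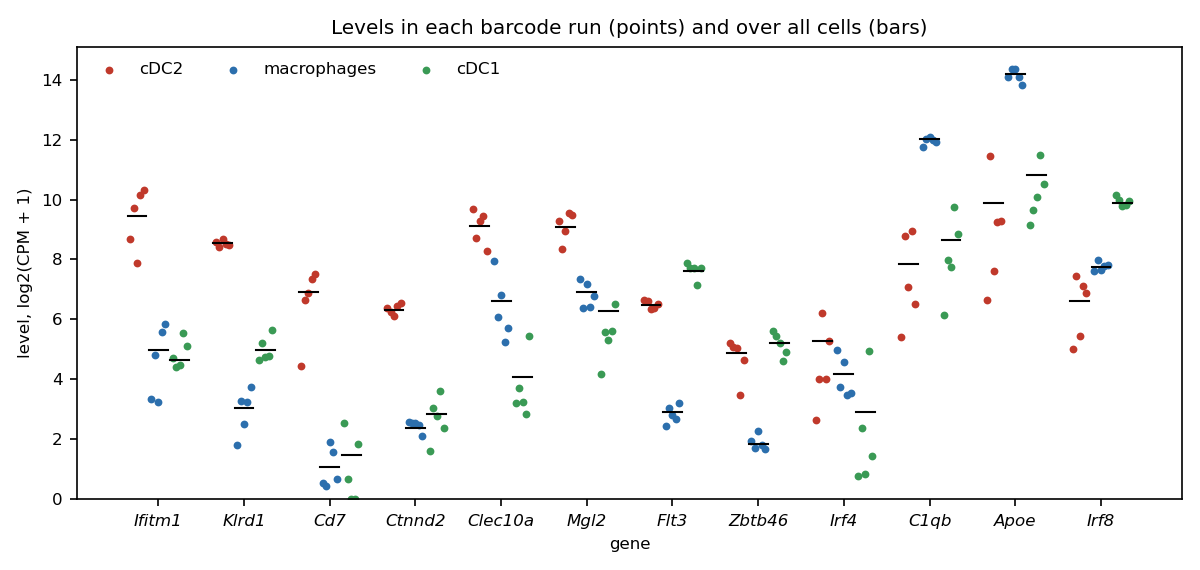
Levels as log2(CPM + 1) of marker, DC, and macrophage genes in the members (cDC2), macrophages, and cDC1, with a point for each of the 5 barcode runs that hold members and a bar for all cells of the group. For *Ifitm1*, *Klrd1*, *Cd7*, and *Ctnnd2* all points of the members lie above all points of the other groups, while *Irf4*, *C1qb*, and *Apoe* spread widely over the runs of the members, with *Apoe* at 98.4 to 2803 CPM.

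Seen cell by cell, the markers were scattered. A UMI was found for *Klrd1* in 75.8% of the members, for *Ifitm1* in 63.4%, for *Ctnnd2* in 46.6%, and for *Cd7* in 36.6%. With each cell thinned to 3000 UMIs, which left out 9 members, the shares were 52.0%, 43.4%, 20.4%, and 17.8%. The same shares in thinned macrophages, a cell type that should lack these genes, were 1.26%, 3.92%, 1.20%, and 0.247%, after 1558 shallower cells were left out. Of the members 27 carried all 4 of these genes, 45 carried 3, 42 carried 2, 31 carried 1, and 16 carried none, whereas 87.9% of macrophages and 53.5% of cDC1 carried none. The 10 richest members held 46.8% of the *Ifitm1* UMIs and 51.8% of the *Cd7* UMIs but 30.8% of those of *Klrd1* and 26.6% of those of *Ctnnd2*.

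Against macrophages, the members were set apart by lymphoid-associated and DC genes and had far less of the lysosomal, complement, and chemokine transcripts of macrophages. Macrophages were chosen on the complement gene *C1qa*, so the complement deficit was in part set by the rules. Only the members were filtered on *Pf4*, *Retnla*, and *Ear2*, and the part of the rules in the other deficits was not tested. Among 7050 genes with a mean of at least 10 CPM over both groups, 436 (6.18%) were at least 2-fold higher in the members and 882 (12.5%) at least 2-fold lower. The 15 genes with the largest excess among those found in at least 25% of the members were *Cd7*, *Klrd1*, *Siglecg*, *Gm9733*, *Ddr1*, *Ifitm1*, *Ctnnd2*, *Arap2*, *Pgf*, *Itgb7*, *Wnt11*, *P2ry10*, *Flt3*, *Kmo*, and *Gpr171*, from 13-fold to 106-fold. All 15 were at least 2-fold higher in each of the 5 runs. The kynurenine enzyme *Kmo* (71.2 against 5.45 CPM), the gut-homing integrin subunit *Itgb7* (281 against 17.5 CPM), and the inhibitory sialic acid receptor *Siglecg* (90.1 against 3.15 CPM) were of this group. *Pgf*, a growth factor of the VEGF family, stood at 147 CPM, with 269, 138, 110, 137, and 159 CPM over the runs, against 9.10 in macrophages.

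The 15 genes with the largest deficit were *Gas6*, *Fblim1*, *Itga9*, *Gdf15*, *Igf1*, *Spp1*, *Ccl8*, *Ccl12*, *Trem2*, *Fcrls*, *Hmox1*, *Maf*, *Lhfpl2*, *Pmp22*, and *Tlr7*, and 14 were at least 2-fold lower in each run. Several rest on few transcripts. *Gas6*, a ligand of TAM receptors, had 0.609 CPM in the members, which is 1 UMI, against 144 in macrophages, a ratio of 0.00424. That UMI lay in run 3, without which the members had none and the bound on the ratio with 3 counts was 0.0200. *Igf1* had no UMI in the members, so it was at least 50.4-fold lower with 3 counts in their place, a bound on the ratio of 0.0198 that loosened to 0.0310 without run 3. The better counted ones were *Spp1* (osteopontin), 50.2-fold lower (CI 42.7 to 59.3), at 90.7 against 4550 CPM, and the heme-degrading *Hmox1*, 33.4-fold lower (CI 22.8 to 51.1), at 15.8 against 528 CPM. *Spp1* was 15.5 to 221 CPM over the runs, with run 1 the lowest and run 6 the highest. *Trem2*, a lipid-sensing receptor of tumor macrophages, stood at 11.6 against 467 CPM, and its level of 0.0248 of that of macrophages was 0.0102 without run 2.

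**Figure D2:**
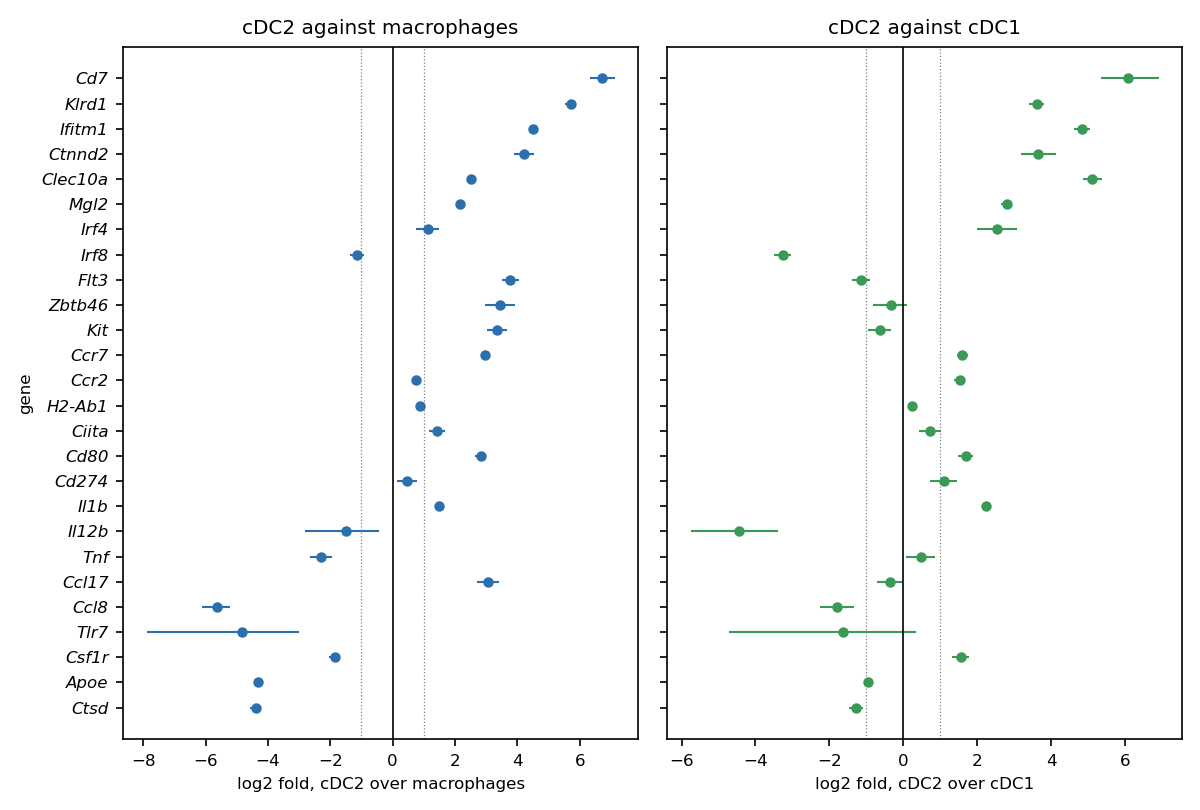
Log2 ratio of the level in the members (cDC2) to that in macrophages (left) and cDC1 (right) for 26 genes, with exact 95% intervals from counting and dotted lines at 2-fold. The marker genes *Cd7*, *Klrd1*, *Ifitm1*, and *Ctnnd2* lie at the right in both comparisons, *Flt3* lies to the right against macrophages and to the left against cDC1, and the widest intervals belong to *Tlr7*, with 2 UMIs in the members, and *Il12b*, with 7.

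Against cDC1, the members had more of a set of lectins, of *S100a4* and Ifitm genes, and of *Ms4a4c*. They had less of the cDC1 program and of proliferation genes, but cDC1 were chosen on genes of that program. Only the members were filtered on *Mki67*, so both deficits were in part set by the rules. Of 6811 genes, 573 (8.41%) were at least 2-fold higher in the members and 554 (8.13%) at least 2-fold lower. The 15 largest excesses were those of *Cd7*, *Gm9733*, *Pgf*, *Clec10a*, *Ifitm1*, *Ddr1*, *Cdh1*, *Galnt6*, *Il1r2*, *S100a4*, *Ms4a4c*, *Ifitm6*, *Ctnnd2*, *Klrd1*, and *Mcemp1*, from 12.1-fold to 67.4-fold and at least 2-fold in each of the 5 runs. The decoy receptor *Il1r2*, which binds interleukin 1 without signaling, was at 857 CPM against 57.7 in cDC1 and 98.9 in macrophages, and over the runs at 689, 1111, 786, 885, and 738 CPM. *S100a4*, a calcium-binding protein of motile cells, was at 1979 CPM against 145 in cDC1. The ratios of *Pgf* and *Gm9733*, 35.2 and 63.6, were 86.9 and 161 without run 4, which holds cDC1 but no members.

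All 12 measured genes of the cDC1 list were at least 2-fold lower in the members, which were compared here with cells chosen on genes of that list. *Irf8*, the transcription factor on which cDC1 depend, was at 97.4 against 937 CPM, and the thioesterase *Ppt1* at 107 against 826. The 15 largest deficits were those of *Fam149a*, *Pianp*, *Serpinf1*, *AC163354.1*, *Nck2*, *Bcl2l14*, *Itga1*, *Agpat3*, *Fzd1*, *Igf2r*, *Itga3*, *Pclaf*, *Tlr3*, *Ube2c*, and *P3h2*. They rest on few transcripts, with no UMI of *Pianp*, *Igf2r*, and *P3h2* in the members and 1 UMI each of *Fam149a*, *Serpinf1*, *Nck2*, and *Fzd1*. The 12 with a UMI were from 23.1-fold (*Ube2c*) to 75-fold (*Fam149a*) lower. Without run 3, which held the *Fam149a* UMI, that ratio of 0.0133 gave way to a bound of 0.0637, and the *Ube2c* ratio of 0.0433 was 0.00736 without run 6. With 3 counts in place of 0, 9 of the 15 were at least 2-fold lower in each run. *Agpat3*, a lipid acyltransferase, was at 3.04 against 107 CPM, and the collagen receptor subunit *Itga1* at 1.83 against 67.0, a ratio of 0.0272 that was 0.0455 without run 3. *Pianp*, *Igf2r*, and *P3h2* were at least 45.2-fold, at least 33.5-fold, and at least 22.8-fold lower, and without run 3 these bounds on the ratio rose from 0.0221, 0.0298, and 0.0439 to 0.0336, 0.0451, and 0.0670. The cycling genes *Pclaf* and *Ube2c* are in this set. The rule had removed cells with a *Mki67* UMI from the members, while cDC1 with such a UMI were kept.

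Antigen presentation genes were on a high level in all of these cells. *Cd74*, the invariant chain, stood at 20052 CPM in the members, 12648 in macrophages, and 16376 in cDC1. *H2-Ab1* stood at 13323 CPM (11699 to 14527 over the runs) against 7235 and 11221. These differences were under 2-fold over all cells. For all 7050 measured genes the shares were 6.18% at least 2-fold higher than in macrophages and 12.5% lower. Of 14 measured genes of MHC class II presentation, 4 were at least 2-fold higher than in macrophages and 3 at least 2-fold lower, with a median ratio of 1.77. The higher ones were *Ciita*, the class II master regulator (79.8 against 29.9 CPM), and *H2-DMb2*, *H2-Oa*, and *H2-Ob*, which steer peptide loading. *H2-Oa* was 11.8-fold (CI 10.3 to 13.5) above macrophages and 8.57-fold to 17.9-fold in the runs. The lower ones were the lysosomal proteases *Ctsl* (56.0 against 1193 CPM), *Lgmn* (264 against 1798), and *Ctss* (1751 against 4057).

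For MHC class I and cross-presentation, 6 of 15 measured genes were at least 2-fold lower than in cDC1 and none was higher, and their median ratio was 0.592 against 0.988 over all 6811 genes. They included the peptide transporter subunits *Tap1* and *Tap2* (133 and 64.5 CPM against 304 and 189), the immunoproteasome subunit *Psmb9* (142 against 554), and *Wdfy4*, a gene required for cross-presentation of cell-bound antigen (158 against 710). The heavy chains *H2-K1* and *H2-D1* differed by less than 2-fold from both groups.

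The C-type lectins divided the groups in different ways. Against cDC1, 10 of 12 measured lectins outside the rule were at least 2-fold higher and 2 lower, with a median ratio of 5.87. Against macrophages, 4 of 14 were higher and 5 lower, with a median ratio of 0.642. The 4 were *Clec10a*, *Mgl2*, *Cd209d*, and *Clec4b1*, the last at a ratio of 2.03 that was 1.89 to 1.94 without run 3, 5, or 6. *Cd209d*, a neighbor of *Cd209a* on chromosome 8, stood at 119 CPM, 25.9-fold above macrophages (CI 21.6 to 31.1), and was found in 23.0% of the members, with 68.2% of its UMIs in 10 cells. These lectins were not particular to the members. Against the 231 *Cd209a* cells shut out by *Retnla* or *Ear2* alone, 1 of 13 measured lectins, *Clec10a*, was at least 2-fold higher. There 5 were lower, *Mgl2* and *Clec4b1* among them, and the *Cd209d* ratio was 0.626, or 0.457 without run 3. *Clec10a* ranged from 307 CPM in run 6 to 828 in run 1, above the 96.6 CPM of all macrophages in each run. The Cd209, Ifitm, H2, Ms4a, and Klra genes have close relatives, and reads they share could be counted for the wrong gene.

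Of 10 measured killer lectin and lymphoid-associated genes, 6 were at least 2-fold higher in the members than in macrophages and 1, *Klra2*, was lower, with a median ratio of 3.43. Apart from *Klrd1* and *Cd7* these were *Klrk1* (NKG2D), *Klrb1b*, *Klra17*, and *Ltb*, which encodes lymphotoxin beta. *Klrk1* stood at 112 CPM (CI 96.4 to 129) against 12.9 in macrophages but 132 in cDC1, and *Klrb1b* at 180 CPM against 42.1 and 153, so these were levels shared with cDC1. *Ltb* was at 30.4 CPM against 2.81 and 1.10. All 4 measured Ifitm genes were at least 2-fold higher than in both groups. *Ifitm3* was the highest of them at 2133 CPM (1831 to 2690 over the runs), against 861 in macrophages and 403 in cDC1, and *Ifitm2* stood at 1416 CPM against 438 and 526. Against the 231 *Cd209a* cells shut out by *Retnla* or *Ear2* alone, only *Ifitm1* was at least 2-fold higher. *Ifitm2*, *Ifitm3*, and *Ifitm6* differed by less than 2-fold there, and the median ratio of the 4 genes was 1.53.

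The interferon-induced genes did not go with the Ifitm genes. Of 18 measured, none was 2-fold higher in the members than in macrophages and 9 were lower, with a median ratio of 0.520, among them *Rsad2* (27.4 against 116 CPM) and *Oasl1* (23.1 against 114). Against cDC1, 4 of 17 were higher and 5 lower, with *Cxcl9*, a ligand for T cells, at 8.52 against 91.2 CPM. The shares over all 6811 genes were 8.41% and 8.13%. The calls of *Ifit1*, *Mid1*, *Ifi44*, *Mx1*, and *Usp18* were each lost when certain single runs were left out. The *Ifit1* ratio of 2.23 was 1.40 without run 6, and the *Usp18* ratio of 0.457 was 0.655 without run 3. *Cxcl9* was at 0.804 CPM without run 2. *Cxcl10* stood at 85.8 CPM, with 94.3% of its UMIs in 10 members, and at 23.3 CPM without run 2. Of 8 measured genes of nucleic acid sensing, none differed by 2-fold from macrophages, with a median ratio of 0.825. *Tmem173* (STING) was at 59.1 against 55.1 CPM. Over all 7050 measured genes 6.18% were at least 2-fold higher and 12.5% lower, so a count of none among 8 says little. All 5 measured Toll-like receptors were at least 2-fold lower than in macrophages, *Tlr2* the highest of them at 218 against 541 CPM.

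Among cytokines, *Il1b* stood out in level. It was at 4286 CPM (CI 4187 to 4388), in 91.9% of the members, with 4769, 4267, 4573, 4174, and 3510 CPM over the runs, against 1521 in macrophages and 904 in cDC1. The level was not particular to the members. Cells shut out by *Mki67* alone had 5498 CPM with 1 *Mki67* UMI and 5403 with at least 2. Cells shut out by *Retnla* or *Ear2* alone had 3527, 2857, and 3326.5 CPM with 1, 2, and at least 3 such UMIs. *Il10* was at 5.48 against 144 CPM in macrophages, *Tnf* at 43.2 against 211, and *Il12b* at 4.26 against 92.1 in cDC1. Of 10 measured cytokines 2 were at least 2-fold higher than in macrophages and 5 lower, and of 8 measured against cDC1 3 were higher and 2 lower. The shares over all measured genes were 6.18% and 12.5% against macrophages, and 8.41% and 8.13% against cDC1. Chemokines were at least 2-fold lower than in macrophages in 14 of 17 measured genes, with a median ratio of 0.189, and the exception above 2-fold was *Ccl17* (52.4 against 6.27 CPM), found in 9.32% of the members.

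For all 7050 measured genes the shares were 6.18% at least 2-fold higher than in macrophages and 12.5% lower. Of 9 measured chemokine and migration receptors 3 were at least 2-fold higher than in macrophages and 2 lower. The higher ones were *Ccr7*, *Gpr183*, and *Ccr9*. Of these *Ccr9* rested on run 2, with 62.6 CPM there and 0, 8.88, 0, and 3.45 in runs 1, 3, 5, and 6, and its ratio fell from 5.55 to 1.84 without that run. *Ccr7*, which guides DCs to lymph nodes, was at 384 CPM (378, 561, 325, 325, and 300 over the runs) against 49.1 in macrophages and 127 in cDC1, far under the 4038 CPM of the 213 cells chosen on at least 3 UMIs each of *Ccr7* and *Fscn1*. *Ccr2*, the receptor of monocyte recruitment, was at 348 CPM, 1.66-fold above macrophages. Of 13 costimulation and checkpoint ligands 4 were at least 2-fold higher than in macrophages and 1 lower. *Cd80* stood at 188 CPM against 26.5 and 58.2, and *Cd86* at 360 CPM against 222 and 272. The other higher ones were *Tnfsf9* (4-1BB ligand, 123 against 43.0 CPM), *Btla*, and *Timd4*, whose level of 21.3 CPM was 7.39 without run 6, and the lower one was *Vsir*.

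The genes of the coagulation pathway that the study was built on were at low levels in the members. *F10*, which encodes factor X, had 21 UMIs in all (12.8 CPM, CI 7.91 to 19.5, in 3.73% of the members), and *F7* had 5 (3.04 CPM, CI 0.988 to 7.10). Most lay in run 6, where *F10* was at 58.6 CPM against 0, 2.50, 5.33, and 0 in runs 1, 2, 3, and 5, and without that run *F10* was at 2.96 CPM (4 UMIs) and *F7* at 0.739 (1 UMI). Macrophages had 29.0 and 24.4 CPM. The *F10* ratio over macrophages of 0.440 was 0.515 to 0.551, and so not 2-fold lower, when run 1, 2, 3, or 5 was left out. *F2rl1*, which encodes PAR2, had 2 UMIs in the members (1.22 CPM, CI 0.147 to 4.40) and 0.604 CPM in macrophages. The parts of depth and of low expression in these counts were not tested. Of 12 measured genes of the list 1 was at least 2-fold higher than in macrophages, the plasminogen activator *Plat* (31.0 against 2.94 CPM), and 6 were lower, with the transglutaminase subunit *F13a1* at 15.2 against 256 CPM and a median ratio of 0.505. Against cDC1 5 of 7 were higher and 1 lower, with the matrix glycoprotein *Thbs1* at 264 against 35.0 CPM and the endothelial protein C receptor *Procr* at 70.0 against 34.3, a ratio of 2.04 that was 1.75 without run 1 and 1.5 without run 2. Of 8 measured genes of the TGF-beta axis none was higher and 3 were lower than in macrophages, *Tgfbr1* at 30.4 against 167 CPM and *Tgfbr2* at 42.0 against 121 among them. Beside these counts, the shares over all measured genes were 6.18% higher and 12.5% lower against macrophages. Against cDC1 they were 8.41% and 8.13%.

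All 16 measured lysosome and lipid genes were at least 2-fold lower in the members than in macrophages, with a median ratio of 0.117. The protease *Ctsd* was at 161 against 3375 CPM, 20.9-fold lower (CI 18.5 to 23.7), and *Apoe* at 942 against 18670 CPM. *Apoe* in the members was 98.4, 2803, 194, 605, and 624 CPM over the runs, 82.4% of its UMIs lay in 10 cells, and its level was 344 CPM without run 2. Of 13 measured monocyte genes outside the rule 2 were at least 2-fold higher than in macrophages, *Plac8* (640 against 56.8 CPM) and *Ms4a4c* (358 against 96.7), and 8 were lower, *Lyz2* at 959 against 8754 CPM and the receptor *C5ar1* at 15.8 against 252 among them. The shares over all 7050 measured genes were 6.18% higher and 12.5% lower.

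**Figure D3:**
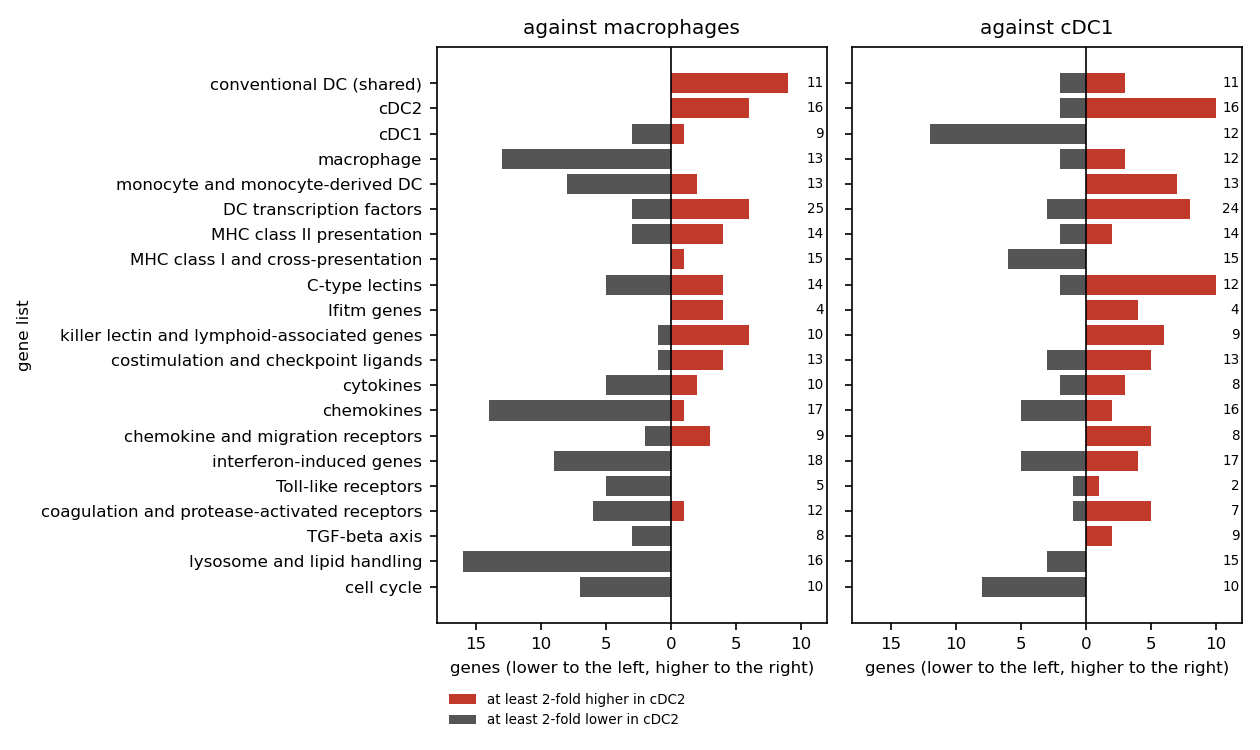
Number of genes of each list that were at least 2-fold higher (to the right) or lower (to the left) in the members than in macrophages and than in cDC1, with the number of measured genes at the right edge. Against macrophages, which had been chosen on *C1qa*, the 16 lysosome and lipid genes and the 13 macrophage genes all lie on the lower side. Against cDC1, which had been chosen on *Xcr1* and *Clec9a*, the 12 cDC1 genes do.

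The clause on *Retnla* and *Ear2* parted cells with different levels of the marker genes. The 231 cells that failed by this clause alone also had at least 3 *Cd209a* UMIs, and were deeper, with a median of 15379 UMIs. Of 6653 genes, 232 (3.49%) were at least 2-fold higher in the members than in these cells and 299 (4.49%) at least 2-fold lower. The members had 6.77-fold more *Ifitm1* (692 against 102 CPM, and 11.3-fold without run 1), 6.15-fold more *Klrd1* (375 against 60.9), 6.11-fold more *Cd7* (119 against 19.4), and 2.17-fold more *Ctnnd2* (77.9 against 35.9). Of the 11 shared DC genes 6 were at least 2-fold higher in the members, *Flt3* and *Kmo* among them, and none lower, with a median ratio of 2.16 against 1.02 over all genes. The other *Cd209a* cells had 1372 CPM of *Fn1* (fibronectin) against 76.1, 5154 of *Lyz2* against 959, 1447 of the chemokine *Ccl6* against 196, and 99.2 of *F10* against 12.8 (2.96 in the members without run 6). They also had more *Mgl2* (1515 against 536 CPM) and *Irf4* (110 against 37.7), both of which are cDC2 genes. Of the 16 measured genes of the cDC2 list 3 were at least 2-fold higher in the members and 4 lower, with a median ratio of 0.796. The *Clec10a* ratio of 2.18, among the higher, was 1.98 without run 3. The list summed to 3901 CPM in the members and 5581 in the other *Cd209a* cells. All 6 tumor or epithelial genes were at least 2-fold lower in the members, *Krt18* at 7.31 against 103 CPM. Without run 3 the ratios of *Krt18*, *Krt8*, *Epcam*, and *Csn3* rose from 0.0709, 0.103, 0.336, and 0.251 to 0.610, 0.547, 1.14, and 1.64, and that of *Krt14*, with no UMI in the members, rose from a bound of 0.0738 to a bound of 1.06 without run 1, so these 5 were then no longer 2-fold lower. The part of tumor cell RNA in the difference was not tested.

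With 0, 1, 2, and at least 3 UMIs of *Retnla* and *Ear2* together the groups held 161, 43, 23, and 165 cells. *Cd7* went from 119 CPM to 68.1, 33.1, and 8.37. *Klrd1* and *Ifitm1* were higher with 2 such UMIs than with 1, at 375, 127, 157, and 37 CPM and at 692, 201, 533, and 33.1 CPM. *Fn1* went the other way, from 76.1 to 296, 497, and 1682 CPM, and *Mgl2* from 536 to 1209, 1418, and 1586. Cells with 1 such UMI thus lay between the members and the cells with 3 or more for all 5 of these genes.

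**Figure D4:**
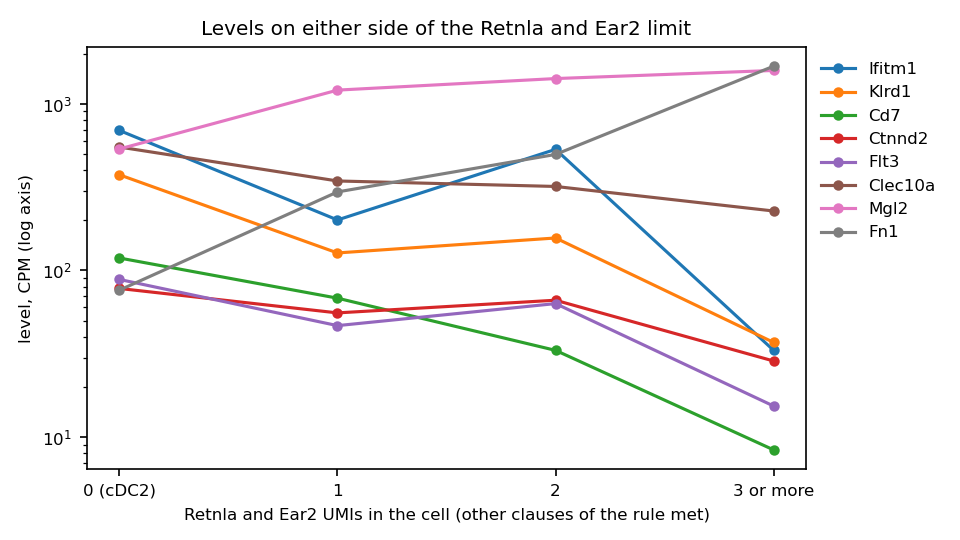
Levels in CPM (log axis) of marker and neighboring genes in cells with at least 3 *Cd209a* UMIs by their number of *Retnla* and *Ear2* UMIs, 0 for the members and then 1, 2, and at least 3. *Klrd1* and *Cd7* are lowest and *Fn1* and *Mgl2* highest in the cells with at least 3. The numbers of cells are 161, 43, 23, and 165.

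The limits on *Cd209a* and *Mki67* were described in the same way. Cells with 2 *Cd209a* UMIs that met the other clauses numbered 38 and had 423 CPM of *Ifitm1*, 242 of *Klrd1*, and 139 of *Cd7*. The 22 members with 3 had 736, 278, and 132 CPM, and the 15 with 4 had 468, 482, and 89.5. *C1qa* was at 490 CPM in the cells just outside at 20.8 and 6.88 in those just inside, and at 210 in the 124 members with 5 or more. The 91 cells shut out by *Mki67* alone had 339 CPM of *Klrd1*, 137 of *Cd7*, 92.8 of *Ctnnd2*, and 119 of *Flt3*, against 375, 119, 77.9, and 88.3 in the members, and 203 of *Ifitm1* against 692. Their *Ccr7* stood at 1157 CPM against 384 in the members.

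The members varied among themselves. In the 152 members that could be thinned to 3000 UMIs, the variance of a gene over its mean had a median of 1.10 over 3644 genes. Among the highest values were those of *Apoe* (58.1), *Cxcl10* (17.6), *Cxcl2* (16.1), the heat shock genes *Hspa1b* (10.9) and *Hspa1a* (10.5), *Il1b* (10.0), *Lyz2* (9.79), and *Ifitm1* (8.82). *Gm42418* (49.8), *Malat1*, *Fth1*, *Tmsb4x*, and mitochondrial genes, which are abundant in nearly every cell, were also among them. *Apoe*, *Cxcl10*, and *Cxcl2* had a UMI in 38.8%, 6.58%, and 18.4% of these cells, so a minority carried most of the transcripts.

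Leiden clustering of the members alone gave 3 subclusters of 58, 52, and 51 cells. Their levels describe the clusters, which were formed from these genes, and test nothing. Subcluster 1 was led by *Plet1*, *Il1rn*, *Qpct*, and *Procr*, and it had the most *Ccr7* (730 CPM against 243 and 124 in subclusters 2 and 3), *Cd80* (330 against 123 and 85.5), *Cd274* (PD-L1, 97.5 against 21.5 and 34.2), and *Il1b* (6234 against 3321 and 2983).

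*Rasgrp2*, *Gsr*, and *Cd7* were among the leading genes of subcluster 2. It had 282 CPM of *Cd7* against 57.8 and 30.4 in the others, 579 of *Klrd1* against 358 and 196, 1025 of *Ifitm1* against 720 and 336, 386 of *Tcf4* against 114 and 127, and 250 of *Cd209d* against 29.7 and 93.1. The plasmacytoid DC genes summed to 1002 CPM in subcluster 2 against 292 and 454 in subclusters 1 and 3. *Siglech* was at 52.8 CPM there, in 11.5% of its cells, against 4.96 and 7.6. *Mgl2* was the lowest there, at 213 CPM against 692 and 669. Of its 52 cells 20 came from run 3 and 1 from run 1, where *Cd7* was also lowest. Without this subcluster the *Cd7* ratio fell from 106 to 40.1 over macrophages and from 67.4 to 25.6 over cDC1, and *Ifitm1*, *Klrd1*, *Cd7*, and *Ctnnd2* stayed at least 2-fold higher than in both groups.

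*Ccl4*, *Hspa1b*, and *Hacd4* were among the leading genes of subcluster 3. It had 524 CPM of *C1qb* against 140 and 39.1, 2107 of *Apoe* against 390 and 397, 534 of *Hspa1b* against 42.9 and 39.1, and 125 of *Fcgr1* against 31.4 and 33.3. The macrophage genes summed to 4324 CPM there and to 1360 and 920 in subclusters 1 and 2. Possible doublets, members with at least 3 *C1qa* UMIs or a UMI of a T cell receptor gene, were 20 in all. Subclusters 1, 2, and 3 held 8, 2, and 10 of them. The cells of subcluster 3 were spread over runs 1, 2, 3, 5, and 6 as 9, 9, 11, 11, and 11. The part of doublets and of RNA from macrophages in the subclusters was not tested.

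**Figure D5:**
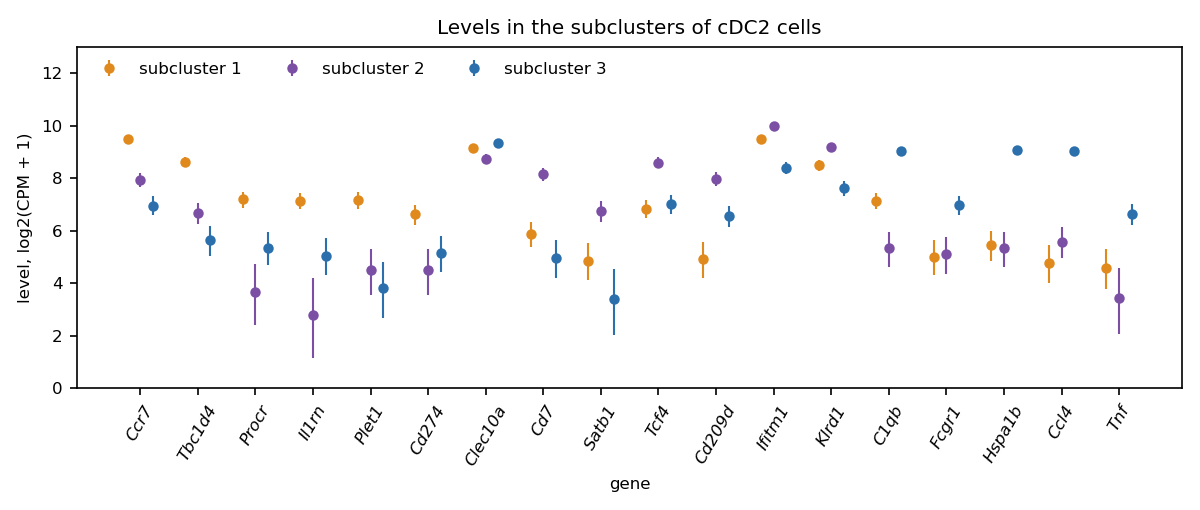
Levels as log2(CPM + 1) of leading and marker genes in the 3 subclusters of the members, with exact 95% Poisson intervals. *Ccr7*, *Procr*, and *Plet1* are highest in subcluster 1, *Cd7* and *Tcf4* in subcluster 2, and *C1qb* and *Hspa1b* in subcluster 3, while *Clec10a* is at 575, 423, and 646 CPM in them.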

How the data were processed

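The deposited files were matrices of raw UMI counts (genes by barcodes), 1 of CD11c-selected and 1 of CD4/CD8-selected cells. The submitters' processing notes name Cell Ranger 3.0.2 and mm10. Cells were frozen and thawed before the run. Of 11980 barcodes, 341 with under 200 detected genes were left out. Symbols matched GENCODE M21 for 98.2% of 31053.

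Levels are summed UMIs per 1000000. Ratios have exact conditional binomial intervals, levels exact Poisson and shares Clopper-Pearson intervals. A gene without a UMI in a group entered with 3 counts, which gives a bound. Genes of the rule were left out of all counts. Named were the markers, genes of 36 fixed lists (422 genes, 3 not in the matrix), and 15 genes per direction with the largest ratio, a mean of at least 10 CPM, and detection in at least 25% of the higher group. The members and lists were chosen with earlier results of these data known. Members were clustered on 1000 variable genes, 20 components, and 15 neighbors at resolution 0.5, without genes of the rule, mitochondrial genes, *Xist*, *Mid1*, and *Ifi208*. No doublet was removed. Python 3.11.15, numpy 2.4.6, scipy 1.17.1, scanpy 1.11.5, and leidenalg 0.10.2 were used, and the ratios were tested on simulated data. The comparison with *Retnla* and *Ear2* cells, the limit values, exclusion from 2 UMIs, omission of subclusters, and omission of each run for listed genes were added after the data had been seen. Values of some single genes are not reported here.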

Additional observations from a re-analysis of the deposited data

Results flagged for a closer look

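The same rule found 7 cells in the other matrix, that of CD4/CD8-selected cells, in which it had not been set. They were 0.0307% of 22806 cells (CI 0.0123% to 0.0632%) and came from 32 cells with at least 3 *Cd209a* UMIs and from 4 barcode runs. They had 413 CPM of *Klrd1*, 275 of *Cd7*, and 465 of *Clec10a*, but 1 UMI of *Ifitm1* and 2 of *Mgl2*. *Siglech* stood at 889 CPM, with at least 3 UMIs in 4 of the 7 cells, *Ly6d* at 1470, *Bst2* at 1735, and *Irf8* at 878. In the CD11c-selected members *Siglech* was at 20.7 CPM and *Irf8* at 97.4. A T cell receptor UMI was found in 2 of the 7 cells. With 7 cells and no map to samples, no value was tested.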

How the results depend on the processing

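The share of members depended on the rule. It was 1.71% from 2 *Cd209a* UMIs and 1.07% from 5, 1.67% with outlying cells left out, 7.01% with no exclusion clause, and 2.35% with exclusion from 2 UMIs, an alternative added after the data had been seen. Leaving out each barcode run in turn gave 1.24% to 1.57%. Gene counts moved with the filter on level. Without it 1534 genes were higher and 2275 lower than in macrophages, and 1781 higher and 1451 lower than in cDC1. From a mean of 50 CPM the counts were 208 and 274, and 261 and 154. Without each run in turn they were 416 to 485, 875 to 951, 556 to 614, and 554 to 586. Subclusters numbered 8 at resolution 1 and 2 at resolution 0.3. None of the 60 named ratios left its side of the 2-fold limit under any of 840 alternative values, while 92 values moved beyond their counting interval and 39 ratios had an alternative over 1.5 times away. The ratios of *Ifitm1*, *Klrd1*, *Ctnnd2*, and *Flt3* had none. Averaging over cells in place of summing UMIs gave 32.5 for *Arap2* and 37.2 for *Ddr1* over macrophages, and the *Cd7* ratio over cDC1 was 146 with outlying cells left out. The causes were not tested. No paired analysis was possible because the barcodes carry no sample name.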
